A study of Rattus norvegicus with 6 samples.

Results

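The hepatic genes described here were 10 that bring long-chain fatty acids into a cell, bind them and activate them, chosen by name whatever their levels. They were Cd36 and Slc27a2 for uptake, Fabp1, Fabp2, Fabp4 and Fabp5 for binding, and Acsl1, Acsl3, Acsl4 and Acsl5 for activation. All 10 were found among the 30957 genes of the table and all 10 were among the 12210 genes with enough counts to be tested. The study used Sprague Dawley rats, all female and 3 weeks old at purchase, to ask whether a gut microbiota shaped by dehydroepiandrosterone (DHEA), an androgen precursor that induces a model of polycystic ovary syndrome, alters the recipient. Both groups of recipients first drank an antibiotic cocktail in 3 courses of 7 days, which makes the animals pseudo germ-free. The t-PBS rats then received by gavage, daily for 14 days, faecal microbiota from donors injected with phosphate-buffered saline, and the t-DHEA rats received that of donors injected with DHEA. Each group held 6 rats, and liver RNA of 3 per group was sequenced and is described here. The faecal pellets were pooled before transfer, and no recipient without a transplant was sequenced, so the comparison is between transplants.

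Long-chain fatty acids reach the liver from blood, bound to albumin, and enter hepatocytes with the help of membrane proteins such as CD36 and the fatty acid transport proteins. Inside the cell, small fatty acid binding proteins keep them soluble, and acyl-CoA synthetases join them to coenzyme A, the step that commits them to oxidation, to storage as triglyceride or to membrane lipids. Many of these genes are targets of PPAR alpha, a nuclear receptor that binds fatty acids.

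Total counts ran from 12348511 to 14316886 per liver, so that a gene without a count could have had 0.21 to 0.248 CPM, counts scaled to a common depth. Intervals and floors from counts cover counting error only. No cell-type check went against the tissue label: the summed level of 8 hepatocyte markers, led by Alb and Tf, was 169738.4 to 185338.1 CPM in t-PBS and 178820.5 to 197888.6 CPM in t-DHEA livers. Some marker lists of other cells differed between the groups. Each list was read against the study's criteria, an unadjusted p below 0.05 with a fold-change above 1.2. Among all genes tested, 1.97% met them higher and 2.98% lower in t-DHEA livers. Of 7 mesothelial markers tested, 6 met them, lower in t-DHEA livers, Msln and Krt19 among them. Their edgeR adjusted p lay between 0.62 and 0.937. Lrrn4 was also lower (log2 fold change -1.38) but did not meet the criteria. Krt7 and Krt19 were among the 6, and whether their RNA came from mesothelium or from other epithelium was not tested. The summed mesothelial level was 30.5 to 37.6 CPM in t-PBS and 3.14 to 16.8 CPM in t-DHEA livers. Of 6 red blood cell genes, 4 met the criteria, higher in t-DHEA livers, led by Hba1 and Hba2 (edgeR adjusted p from 0.805 to 0.957). Alas2 (log2 fold change 0.38) and Slc4a1 (-0.11) did not meet them. The summed red blood cell level was 249 to 390 CPM in t-PBS and 417 to 826 CPM in t-DHEA livers.

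None of the 10 genes met the study's criteria for a difference between the transplants, an unadjusted p below 0.05 with a fold-change above 1.2. In edgeR's quasi-likelihood test, 0 of the 10 met them, and 0 of the 10 had an unadjusted p below 0.05. Among all genes tested, 4.95% met the criteria, 1.97% higher and 2.98% lower in t-DHEA, and 5.19% had an unadjusted p below 0.05. The lowest Benjamini-Hochberg adjusted p among the 10, over all genes tested, was 0.975 and belonged to Fabp2. DESeq2 and edgeR's likelihood-ratio test also called 0 of the 10, whereas limma on log2 FPKM called Fabp2. Over every alternative tried, including each liver left out, the lowest adjusted p among the 10 lay between 0.785 and 1. Over all genes tested no adjusted p was below 0.05 with the quasi-likelihood test, although 634 genes had an unadjusted p below 0.05. DESeq2 gave 24 genes with an adjusted p below 0.05 and the likelihood-ratio test gave 28. The fitted level was higher in t-DHEA livers for 5 of the 10 genes and lower for 5. Their log2 fold changes had a median of 0.0082, beside 0.00132 over all genes tested. With 3 livers against 3, a gene whose groups do not overlap reaches only an exact permutation p of 0.1. Groups without overlap were seen for 2 of the 10, Fabp1 and Fabp2, both higher in t-DHEA livers on the TMM-scaled CPM used here. In the deposited FPKM, which are scaled by total counts, Fabp2 kept this separation and Fabp1 lost it. Among all genes tested, 10.1% had groups that did not overlap, 4.66% with the higher values in t-DHEA and 5.42% with the lower. A bulk liver sample cannot tell fewer cells of a type from less RNA per cell, and this holds for every value below.

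**Figure D1:**
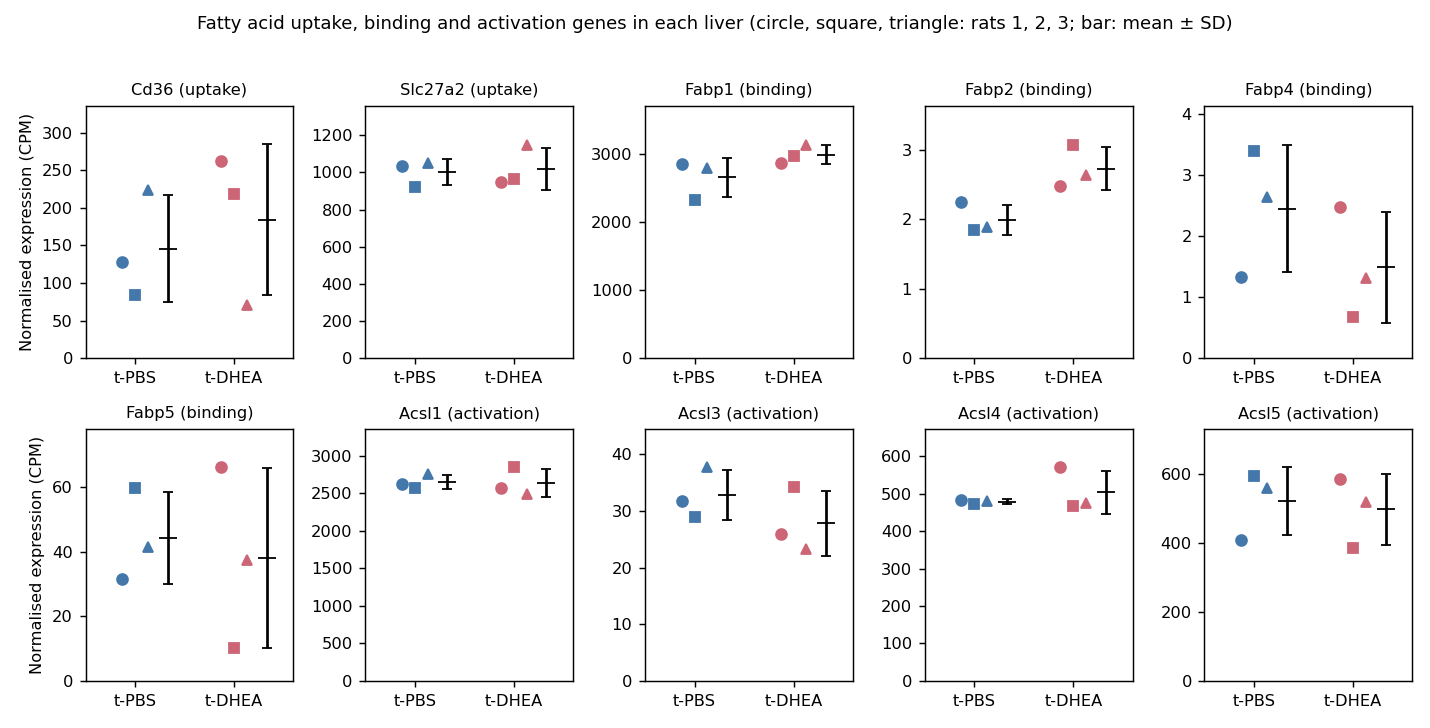
Level of each of the 10 genes in each liver, in normalised counts (CPM), for t-PBS and t-DHEA livers (circle, square and triangle for rats 1, 2 and 3), with bars for the group mean ± SD (n = 3). The points of the groups overlap for 8 of the 10 genes, and those of Fabp1 and Fabp2 lie higher in all 3 t-DHEA livers on this scale, whereas those of Fabp1 overlap in FPKM.

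Levels per transcript length, in FPKM, which divides the count by gene length and by depth, placed the 10 genes over a wide range, and the order was led by liver isoforms. Fabp1 was the highest, at a mean of 5804.2 FPKM over the 6 livers, followed by Acsl1 at 595 FPKM, Slc27a2 at 269 FPKM and Acsl5 at 207 FPKM. Slc27a2 was above Acsl5 within each of the 6 livers, but their ranges across livers touched, from 248 to 303 FPKM for Slc27a2 and from 156 to 252 FPKM for Acsl5. Acsl4 followed at 99.1 FPKM and Fabp5 at 57 FPKM, and their ranges came close, with Fabp5 up to 89.6 FPKM and Acsl4 down to 93.2 FPKM. Cd36 at 15.1 FPKM and Acsl3 at 10.9 FPKM overlapped, as Cd36 ranged from 6.43 to 23.7 FPKM and Acsl3 from 8.3 to 13.6 FPKM. Fabp2 at 5.89 FPKM and Fabp4 at 2.08 FPKM were the lowest, and every liver had more Fabp2 than Fabp4 per length.

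Cd36 encodes the fatty acid translocase, a scavenger receptor that takes up long-chain fatty acids and oxidised lipoproteins (ENSRNOG00000040108, chr4:14001761-14249718, Rnor_6.0). Its level was 128, 84.4 and 224 CPM in t-PBS rats 1, 2 and 3 and 262, 219 and 70.5 CPM in t-DHEA rats 1, 2 and 3. The highest and the lowest of the 6 livers were both t-DHEA livers, so the t-DHEA range enclosed the t-PBS range. The means were 146 ± 71.6 CPM (SD, n = 3) in t-PBS and 184 ± 100 CPM (SD, n = 3) in t-DHEA livers. The log2 fold change was 0.33 ± 0.47 (SE) with a 95% interval from -0.72 to 1.39 (edgeR quasi-likelihood adjusted p = 0.99), which leaves t-DHEA levels anywhere from 0.605 to 2.63 times those of t-PBS. Without t-DHEA rat 1 the log2 fold change was -0.0087, and without t-PBS rat 3 it was 0.789, so single livers set its direction and size. The spread between livers of the same group, an SD of 0.881 on the log2 CPM scale, was larger than that of 98.4% of all genes tested, and larger than that of 99.4% of the 1091 genes with a mean level within 2-fold of its own. Counting error alone would give an SD of 0.031.

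The Cd36 row is also the one among the 10 that overlaps other rows of the table. It lies over RGD1565355, described in the table as similar to the translocase (chr4:14071507-14249749), and over LOC685953, which held 1 count in all. RGD1565355 had 114, 87 and 148 counts in t-PBS livers and 193, 147 and 70 counts in t-DHEA livers, between 4.74% and 7.12% of the summed counts of both rows. It had the same order of livers at both ends as Cd36, highest in t-DHEA rat 1 and lowest in t-DHEA rat 3, with a log2 fold change of 0.34 (edgeR adjusted p = 0.989). Reads in the stretch that both rows cover cannot be assigned with certainty, so the values of RGD1565355 are not independent of those of Cd36. The strandedness of the libraries was not given in the sources used here, and the Cd36 count is uncertain. The length used for Cd36, 10848 bases, was longer than that of 99.1% of the 17187 genes with a length, and its per-length level depends on it.

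The Cd36 promoter is shown because its gene was among those that varied most between livers. It covers the 250 bases before the RefSeq start on chr4:18246332-18246581 of GRCr8, plus strand, a later assembly than the one used for the counts, and the capitals mark a match to TATAAA on the opposite strand.
Cd36: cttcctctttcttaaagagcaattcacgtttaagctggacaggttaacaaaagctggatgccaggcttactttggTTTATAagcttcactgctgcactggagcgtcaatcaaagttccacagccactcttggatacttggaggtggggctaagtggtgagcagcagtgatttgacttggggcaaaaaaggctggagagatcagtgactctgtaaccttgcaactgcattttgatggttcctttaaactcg

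Slc27a2 encodes fatty acid transport protein FATP2, which imports fatty acids into hepatocytes and also activates very long-chain ones (ENSRNOG00000010128, chr3:119014620-119052531). Its level was 1034.7, 921 and 1051.4 CPM in t-PBS livers and 948, 962 and 1149.0 CPM in t-DHEA livers. The t-DHEA livers held both the highest value and values below the t-PBS mean. The means were 1002.5 ± 70.7 and 1019.8 ± 112 CPM (SD, n = 3 each). The log2 fold change was 0.025 ± 0.12 (SE), with a 95% interval of 0.843 to 1.23 times the t-PBS level (edgeR adjusted p = 0.993). Leaving out t-PBS rat 2 turned its sign (-0.0297), as did leaving out t-DHEA rat 3 (-0.064). Of the uptake genes, Slc27a2 therefore carried a narrow interval and Cd36 a wide one.

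The binding proteins were dominated by Fabp1, the liver fatty acid binding protein and one of the most abundant cytosolic proteins of the hepatocyte (ENSRNOG00000006675, chr4:99063181-99066954). Its level was 2853.3, 2327.2 and 2795.9 CPM in t-PBS livers and 2868.5, 2977.3 and 3140.3 CPM in t-DHEA livers. On this scale all 3 t-DHEA values lay above all 3 t-PBS values, although t-PBS rat 1 and t-DHEA rat 1 were nearly equal. In FPKM the groups overlapped, with t-PBS rat 1 at 5850.2 and t-DHEA rat 1 at 5788.8. The means were 2658.8 ± 289 and 2995.4 ± 137 CPM (SD, n = 3 each). The log2 fold change of 0.17 ± 0.12 (SE) had a 95% interval from 0.927 to 1.37 times the t-PBS level and did not pass the test (edgeR unadjusted p = 0.2, adjusted p = 0.986).

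Fabp2 encodes the intestinal fatty acid binding protein, known mainly from the enterocyte (ENSRNOG00000024947, chr2:227080924-227083501). It was scarce in liver, with 32, 25 and 25 counts in t-PBS and 30, 41 and 34 counts in t-DHEA livers, or 2.24, 1.84 and 1.89 CPM against 2.48, 3.07 and 2.63 CPM. Once scaled for depth, the groups did not overlap. The means were 1.99 ± 0.219 and 2.72 ± 0.307 CPM (SD, n = 3 each), and the log2 fold change was 0.45 ± 0.23 (SE) with a 95% interval of 0.947 to 1.97 times the t-PBS level. Fabp2 had the lowest p of the 10 genes and did not pass the test with edgeR's quasi-likelihood method (unadjusted p = 0.0862, adjusted p = 0.975). It did meet the criteria with limma on log2(FPKM + 0.1), where the log2 fold change was 0.41 (unadjusted p = 0.0146, adjusted p = 0.849). The within-group SD was 0.148 on the log2 scale, below the 0.258 that counting error alone would give at these counts, and 6.21% of the 2446 genes of like level had a lower one. The exact Poisson 95% interval of 25 counts, 16.2 to 36.9, overlapped that of 41 counts, 29.4 to 55.6. Of 5 enterocyte markers in the table, 0 had enough counts to be tested and Lct and Alpi were at 0 in every liver.

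Promoters of Fabp1 and Fabp2 are shown because these were the genes whose groups did not overlap in CPM, and because both held a loose match to the direct repeat that PPAR and HNF4 receptors bind. The search was made after the values were seen, on both strands of the 250 bases before each start, in RefSeq promoters of GRCr8. Those promoters covered 8 of the 10 genes, all but Fabp4 and Fabp5. The strict repeat, the half-site AGGTCA and its copy with 1 base of any kind between them, was in 17 of 33469 promoters, or 0.0508%, and in 0 of the 8. The loose form, built in the same way from the half-site AGNNCA and including every strict match, was in 2.23% of all promoters and in Fabp1 and Fabp2. In Fabp1 (chr4:104749090-104749339, plus strand) the capitals mark that match on the opposite strand and a TATAAA box, and in Fabp2 (chr2:213724379-213724628, plus strand) the match on the opposite strand.
Fabp1: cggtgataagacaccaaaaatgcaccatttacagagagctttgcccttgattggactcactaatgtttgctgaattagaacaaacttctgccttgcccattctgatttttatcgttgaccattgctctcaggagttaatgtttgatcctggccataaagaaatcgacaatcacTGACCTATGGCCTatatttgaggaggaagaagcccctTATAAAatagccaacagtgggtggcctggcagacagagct
Fabp2: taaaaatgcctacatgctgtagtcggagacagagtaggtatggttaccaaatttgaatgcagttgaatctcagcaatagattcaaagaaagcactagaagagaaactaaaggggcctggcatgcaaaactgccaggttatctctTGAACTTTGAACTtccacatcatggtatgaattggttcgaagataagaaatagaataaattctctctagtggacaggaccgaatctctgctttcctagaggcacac
A match to TATAAA was in Fabp1, Cd36 and Acsl5 and in 12.9% of all promoters. It began 40 bases before the start in Fabp1, 195 in Acsl5 and, on the opposite strand, 175 in Cd36. The GC box GGGCGG was in Acsl3 and Acsl4 and in 30.5% of all promoters, while the E-box CACGTG was in none of the 8 and in 5.59% of all. These are matches of letters in a window, and binding to them was not measured in these data.

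Fabp4 encodes the adipocyte fatty acid binding protein, also made by macrophages and capillary endothelium (ENSRNOG00000010805, chr2:93792601-93797305). Its counts were 19, 46 and 35 in t-PBS and 30, 9 and 17 in t-DHEA livers, or 1.33, 3.39 and 2.64 CPM against 2.48, 0.673 and 1.31 CPM. The lowest values were in t-DHEA rats 2 and 3, but t-PBS rat 1 was close to t-DHEA rat 3, and the groups overlapped. The means were 2.46 ± 1.04 and 1.49 ± 0.914 CPM (SD, n = 3 each). The log2 fold change of -0.73 ± 0.49 (SE) had a 95% interval from 0.28 to 1.3 times the t-PBS level and did not pass the test (edgeR adjusted p = 0.986). Without t-DHEA rat 1 it was -1.30 and met the criteria (unadjusted p = 0.0349, adjusted p = 0.785), and without t-DHEA rat 2 it was -0.371. Its within-group SD was 0.749 on the log2 scale, larger than that of 93.5% of the 2323 genes of like level, beside 0.283 from counting error alone. Adipoq, Plin1, Lep, Retn and Adrb3 were at 0 in every liver, 5 of 8 adipocyte markers, and Cfd and Lipe, the 2 that were tested, did not meet the criteria. The summed adipocyte level was 16.9 to 21.2 CPM in t-PBS and 20 to 21.9 CPM in t-DHEA livers. None of the 8 macrophage markers, led by Clec4f and Cd5l, met the criteria, at 495 to 593 CPM and 524 to 713 CPM. Among 9 endothelial markers, led by Lyve1 and Kdr, only Kdr met the criteria, higher in t-DHEA livers (log2 fold change 0.36, edgeR unadjusted p = 0.0281, adjusted p = 0.957). The others went both ways, among them Vwf (-0.31) and Stab2 (0.17). The summed endothelial level was 251 to 370 CPM and 345 to 354 CPM. The part of any of these cells in the Fabp4 values was not tested.

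Fabp5 encodes the epidermal fatty acid binding protein, found in many cell types including macrophages and endothelium (ENSRNOG00000049075, chr2:93981656-93985378). Its level was 31.7, 59.7 and 41.6 CPM in t-PBS livers and 66.1, 10.3 and 37.5 CPM in t-DHEA livers. The t-DHEA livers held both extremes, 6.4 times apart, whereas the t-PBS livers lay within 1.88 times of each other. The means were 44.3 ± 14.2 and 37.9 ± 27.9 CPM (SD, n = 3 each), and the log2 fold change of -0.23 ± 0.52 (SE) had a 95% interval from 0.378 to 1.93 times the t-PBS level (edgeR adjusted p = 0.99). Without t-DHEA rat 2 it turned to 0.2265, and without t-PBS rat 2 to 0.0511. The within-group SD of Fabp5 was 1.02 on the log2 scale, larger than that of 99% of all genes tested and of 99.7% of the 3419 genes of like level, beside 0.0621 from counting error alone. Of 6 keratinocyte and squamous epithelial markers, Krt5 was at 0 in every liver and 1, Krt10, could be tested and did not meet the criteria. The summed levels were 2.03 to 3.77 CPM in t-PBS and 1.32 to 1.72 CPM in t-DHEA livers. Krt14, which had too few counts to be tested, was at 0.77, 0.663 and 2.19 CPM in t-PBS and 0, 0 and 0.54 CPM in t-DHEA livers. Its row spans that of Krt19, which was lower in t-DHEA livers, and the part of Krt19 reads in it was not tested.

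**Figure D2:**
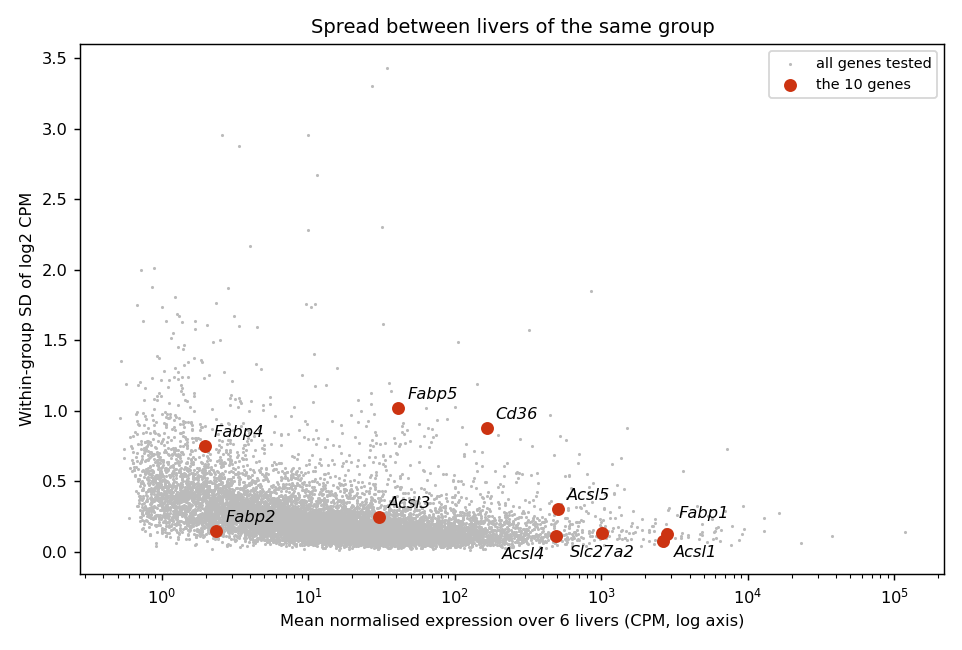
Spread between livers of the same group (within-group SD of log2 CPM, vertical axis) against mean level (CPM, log axis) for all 12210 genes tested, with the 10 genes in red. Fabp5 (SD 1.02) and Cd36 (SD 0.881) stand above nearly all genes of like level, whereas Acsl1 and Fabp2 lie low.

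Acsl1 encodes the main long-chain acyl-CoA synthetase of hepatocytes, which serves both oxidation and triglyceride synthesis (ENSRNOG00000010633, chr16:48937456-49003246). Its level was 2626.9, 2572.5 and 2750.7 CPM in t-PBS livers and 2567.5, 2843.1 and 2493.4 CPM in t-DHEA livers. The highest liver was 1.14 times the lowest over all 6. The means were 2650.0 ± 91.3 and 2634.7 ± 184 CPM (SD, n = 3 each), and the log2 fold change was -0.0084 ± 0.11 (SE), with a 95% interval of 0.833 to 1.19 times the t-PBS level (edgeR adjusted p = 0.996). The sign turned without t-PBS rat 3 (0.0194), t-DHEA rat 1 (0.0098) or t-DHEA rat 3 (0.0351). Its within-group SD of 0.0785 was larger than that of only 8.17% of all genes tested.

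Acsl3 encodes a synthetase of the endoplasmic reticulum and lipid droplets (ENSRNOG00000014718, chr9:84569597-84593565). Its level was 31.8, 29 and 37.7 CPM in t-PBS livers and 25.9, 34.3 and 23.3 CPM in t-DHEA livers. The 2 lowest livers were t-DHEA rats 1 and 3, and t-DHEA rat 2 lay among the t-PBS livers. The means were 32.8 ± 4.48 and 27.8 ± 5.74 CPM (SD, n = 3 each), and the log2 fold change of -0.24 ± 0.16 (SE) had a 95% interval of 0.656 to 1.1 times the t-PBS level (edgeR adjusted p = 0.986). Without t-DHEA rat 2 the log2 fold change was -0.41 and met the criteria (unadjusted p = 0.0195, adjusted p = 0.971).

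Acsl4 encodes the synthetase that prefers arachidonic acid (ENSRNOG00000019180, chrX:113596239-113659944). Its level was 484, 473 and 480 CPM in t-PBS livers and 570, 467 and 474 CPM in t-DHEA livers. Of the 6 livers, 5 lay between 467 and 484 CPM and t-DHEA rat 1 stood above them. The log2 fold change was 0.073 ± 0.11 (SE), with a 95% interval of 0.886 to 1.25 times the t-PBS level (edgeR adjusted p = 0.99), and it was -0.0255 without t-DHEA rat 1.

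Acsl5 encodes a synthetase of mitochondria and the endoplasmic reticulum (ENSRNOG00000016265, chr1:276240703-276290008). Its level was 408, 593 and 560 CPM in t-PBS livers and 586, 386 and 519 CPM in t-DHEA livers. Each group held 1 liver that was clearly lower, t-PBS rat 1 and t-DHEA rat 2. The means were 520 ± 98.8 and 497 ± 102 CPM (SD, n = 3 each), and the log2 fold change of -0.066 ± 0.19 (SE) had a 95% interval of 0.714 to 1.28 times the t-PBS level (edgeR adjusted p = 0.99). Leaving out the highest liver, t-PBS rat 2, or the lowest, t-DHEA rat 2, turned the sign (0.0414 and 0.0893).

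**Figure D3:**
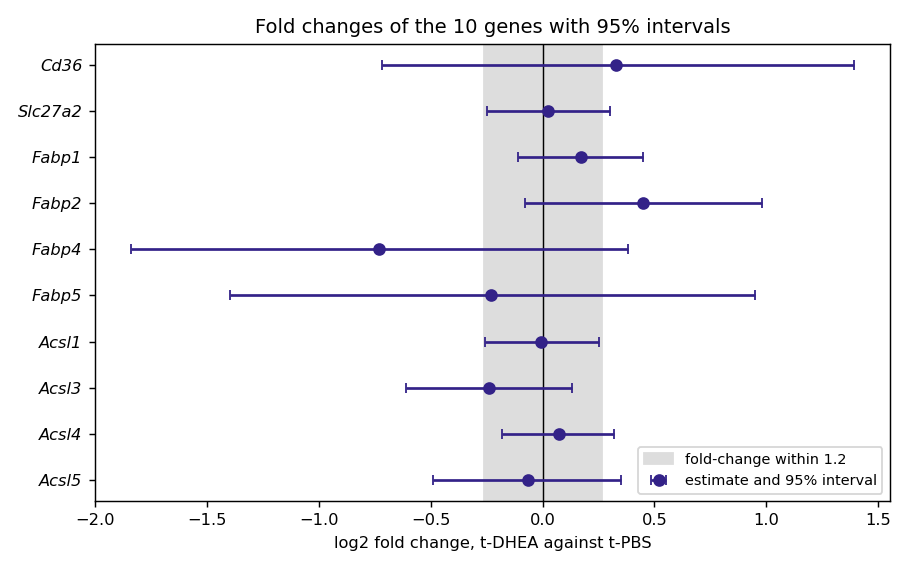
Log2 fold change of t-DHEA against t-PBS livers for each of the 10 genes, with the 95% interval of the edgeR quasi-likelihood fit as bars (3 livers per group). Every interval crosses 0, and the widest are those of Fabp5, Fabp4 and Cd36.

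The isoform makeup of both families was compared as each gene's share of the summed FPKM of its family members among the 10. Acsl1 gave 68.3%, 62.5% and 64.7% of the Acsl sum in t-PBS livers and 61.5%, 70.8% and 64% in t-DHEA livers. The t-DHEA range enclosed the t-PBS range. The mean difference was 0.283 percentage points, from 65.2% ± 2.89 to 65.4% ± 4.84 (SD, n = 3 each; two-sided exact permutation p = 1.0). Acsl5 gave 17.4% to 26.1%, Acsl4 10.1% to 12.2% and Acsl3 0.955% to 1.42% over the 6 livers, with exact permutation p of 0.7, 0.5 and 0.3 between the groups. Fabp1 gave 98.1% to 99.6% of the Fabp sum, 98.7% ± 0.519 in t-PBS and 99% ± 0.653 in t-DHEA livers (SD, n = 3 each; exact permutation p = 0.6). The share of Fabp5 ranged from 0.232% to 1.69% (exact permutation p = 0.6) and that of Fabp4 from 0.0115% to 0.0728% (exact permutation p = 0.2). The share of Fabp2 was 0.0949%, 0.0947% and 0.0813% in t-PBS livers and 0.103%, 0.125% and 0.101% in t-DHEA livers, without overlap. Its two-sided exact permutation p was 0.1, the smallest that 3 livers against 3 can give. After Benjamini-Hochberg adjustment over the 8 shares no p was below 0.8. Fabp7, the brain fatty acid binding protein, was named after its values were seen: at 154 FPKM its mean was above that of Fabp5, and it overlapped between the groups, at 142, 164 and 100 CPM against 90.1, 127 and 145 CPM.

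**Figure D4:**
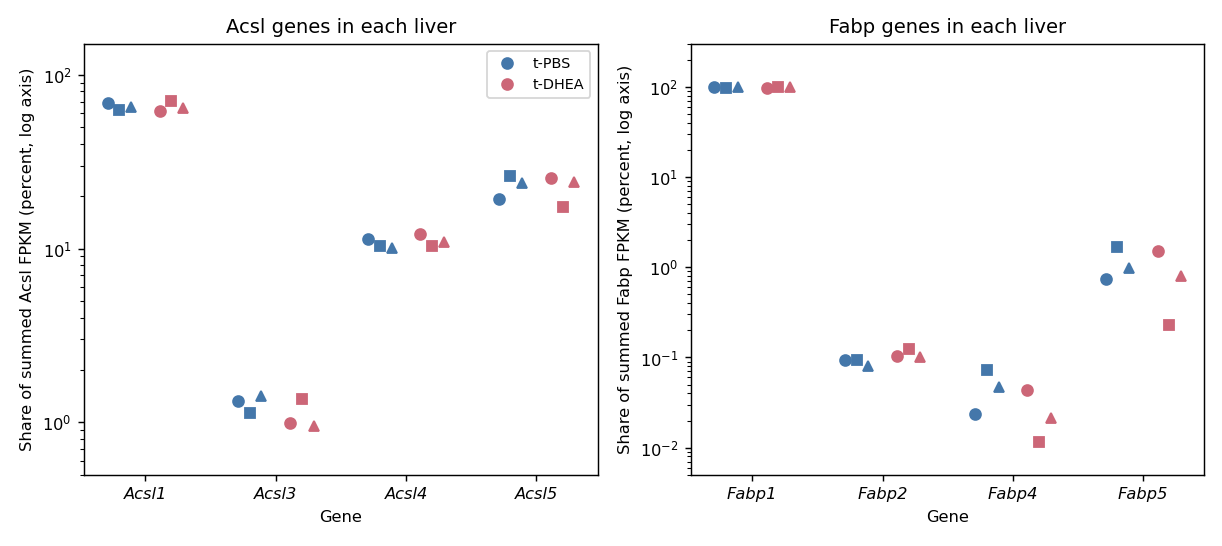
Share of each gene in the summed FPKM of its family among the 10 genes, in percent on a log axis, for each t-PBS and t-DHEA liver (circle, square and triangle for rats 1, 2 and 3). Acsl1 holds 61.5% to 70.8% of the Acsl sum and Fabp1 98.1% to 99.6% of the Fabp sum.

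The levels of the 10 genes were also compared with each other across livers. Pearson's r and Spearman's rho were computed on log2 CPM over the 6 livers for all 45 pairs of the 10 genes, and p came from exact permutation of the livers. Fabp5 and Acsl5 had r = 0.88 (exact p = 0.00278, adjusted p = 0.125 over 45 pairs) and rho = 0.94 (exact p = 0.0167, adjusted p = 0.188). For each pair, r was also taken without the 2 livers farthest from the median of its first-named gene, so the livers dropped could differ between pairs. For Fabp5 and Acsl5 this r was 0.86. Fabp4 and Acsl5 had r = 0.90 (exact p = 0.00694, adjusted p = 0.156) and rho = 0.89 (exact p = 0.0333, adjusted p = 0.25), with r = 0.76 without the 2 farthest livers. Fabp4 and Fabp5, which lie on the same chromosome, had r = 0.90 (exact p = 0.0111, adjusted p = 0.167) and rho = 0.77 (exact p = 0.103, adjusted p = 0.661), with r = 0.72 without the 2 farthest. All 3 genes were lowest in t-DHEA rat 2, the liver with the highest summed red blood cell level (826 CPM) and the lowest mesothelial one (3.14 CPM), and the part of those cells was not tested. Acsl1 and Acsl3 had r = 0.88 (exact p = 0.0222, adjusted p = 0.237) and rho = 0.94, with r = 0.95 without the 2 farthest livers. Fabp2 and Fabp4 had r = -0.86 (exact p = 0.0264, adjusted p = 0.237) and rho = -0.94 (exact p = 0.0167, adjusted p = 0.188), but r was -0.52 without the 2 farthest livers. Cd36, which varied nearly as much as Fabp5, had an r of -0.20 with Fabp5, -0.07 with Fabp4 and -0.11 with Acsl5. None of the 45 pairs had an adjusted p below 0.05. Among all genes tested, 241, or 1.97%, had an r with Fabp5 at least as high as that of Acsl5, and 150, or 1.23%, had one at least as high as that of Fabp4. The values of all genes in a liver come from the same library, and within a group 3 livers are too few for a correlation.

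**Figure D5:**
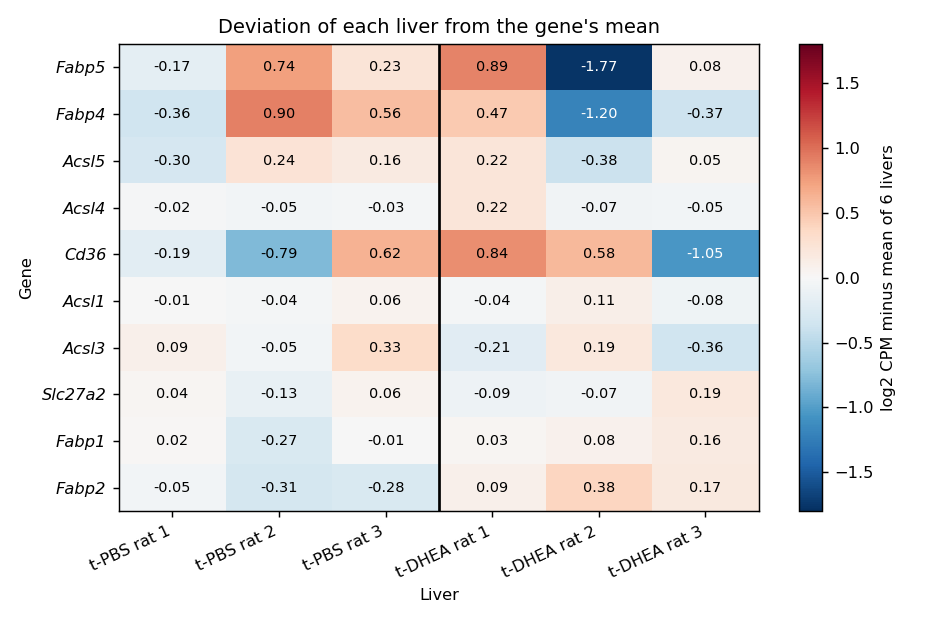
Deviation of each gene in each liver from its mean over all 6 livers, on the log2 CPM scale, with genes in rows and livers in columns. t-DHEA rat 2 is low in Fabp5, Fabp4 and Acsl5, while Acsl1, Slc27a2, Fabp1 and Acsl4 lie between -0.27 and 0.22 in every liver.

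Around the 10 genes, 60 further genes of the pathway were tested, counting each entry of Cyp4a2, and 3 of them met the criteria, all lower in t-DHEA livers. This was 5%, beside 4.95% of all genes tested, and the 60 log2 fold changes had a median of -0.023. Of 6 other uptake genes tested 1 met the criteria, lower in t-DHEA livers. It was Cav1, which encodes caveolin-1 of plasma membrane caveolae and is abundant in endothelium, mesothelium and adipocytes. Cav1 was at 5.46, 9.5 and 5.28 CPM in t-PBS and 3.96, 2.54 and 3.47 CPM in t-DHEA livers, a log2 fold change of -1.02 ± 0.28 (SE; edgeR unadjusted p = 0.00556, adjusted p = 0.805). Its groups did not overlap. In the same livers, 6 of 7 mesothelial markers met the criteria lower, as given above. So did 3 of 8 stellate and fibroblast markers, Col1a1, Col3a1 and Lum (edgeR adjusted p from 0.868 to 0.909), beside 2.98% of all genes tested. The summed level of these 8 was 562 to 730 CPM in t-PBS and 462 to 543 CPM in t-DHEA livers. Col3a1 and Lrat were the highest of the 8 in mean FPKM, and Lrat did not meet the criteria (log2 fold change 0.04). The summed endothelial level was 251 to 370 CPM in t-PBS and 345 to 354 CPM in t-DHEA livers, with Kdr higher (edgeR adjusted p = 0.957). The summed adipocyte level was 16.9 to 21.2 CPM and 20 to 21.9 CPM. The part of those cells in the Cav1 value was not tested.

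The other binding proteins gave no call among 8 tested, and their median log2 fold change was -0.06. The highest per length were Scp2, a sterol and lipid carrier, at 265 FPKM, and Dbi, the acyl-CoA binding protein, at 180 FPKM. Fabp6 and Acbd7 were at 0 in every liver. Of 9 other activating enzymes tested 1 met the criteria, lower in t-DHEA livers. It was Acss1, the mitochondrial acetyl-CoA synthetase, at 2.45, 3.02 and 2.79 CPM in t-PBS and 1.98, 2.02 and 1.62 CPM in t-DHEA livers (log2 fold change -0.55 ± 0.24, SE, edgeR unadjusted p = 0.0443, adjusted p = 0.957). Acsl6, the remaining long-chain synthetase of the family, was at 0 in every liver. The acyl-CoA thioesterases, which reverse activation by releasing the fatty acid, gave no call among 8 tested, and their median log2 fold change was 0.04. The highest were Acot12 at 26 FPKM and Acot2 at 11 FPKM.

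The regulators of these genes gave no call among 8 tested, and their median log2 fold change was -0.08. Hnf4a, a nuclear receptor of hepatocyte identity, had a mean of 115 FPKM and Rxra, the partner of the PPARs, 111 FPKM. The 20 PPAR alpha targets found outside the 10 genes gave 21 entries tested, as Cyp4a2 had more than 1 entry. Of these 21, 1 met the criteria lower in t-DHEA livers and none met them higher, and their median log2 fold change was -0.01. That gene was Plin2, which coats lipid droplets, at 158, 161 and 153 CPM in t-PBS and 111, 131 and 103 CPM in t-DHEA livers. All 3 t-DHEA values lay below the lowest t-PBS value. Its log2 fold change was -0.45 ± 0.11 (SE; edgeR unadjusted p = 0.00249, adjusted p = 0.796). Plin2 thus met the criteria while Fabp1, Acsl1 and Cd36 did not, and a test of the difference between these genes was not made.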

How the data were processed

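Liver RNA of 3 t-PBS and 3 t-DHEA rats was sequenced from TruSeq paired-end libraries. The authors filtered reads with Seqtk, mapped them to Rnor_6.0 with HISAT2 2.0.4 and summarised them per gene with StringTie 1.3.0. The raw counts they deposited are not normalised. The FPKM values the authors deposited equal the count divided by gene length and total count, within a relative difference of 0.00079. The annotation release and strandedness are not given in the sources used here. Between any 2 livers the counts differed by a chi-square of at least 15.3 per degree of freedom, so none was a duplicate.

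Counts were tested with edgeR 4.0.16 in R 4.3.3 (TMM factors, its default filter on low counts, quasi-likelihood test, no covariate), with p adjusted by Benjamini-Hochberg over all genes tested. The study ran edgeR on FPKM, whereas counts were used here. The criteria were the study's (unadjusted p below 0.05, fold-change above 1.2). SEs were derived from the test statistic. Alternatives were other scaling factors, DESeq2 1.42.0, the likelihood-ratio test, limma 3.58.1 on log2(FPKM + 0.1) and log2(FPKM + 1), other filters, rat number as a block and each liver left out. Summing Cd36 with RGD1565355 was added after seeing the data. The tests were tried on simulated data.

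Replicate numbers came from the labels, which do not tie rats across groups. The sources do not say how the 3 livers per group were chosen from 6 or which rats shared a cage. The 10 genes and all lists were chosen with earlier results of these data known. All 10 genes were named, and from each pathway list the genes meeting the criteria or otherwise the 2 highest in mean FPKM, and from each marker list the 2 highest in mean FPKM; other genes were named after their values were seen. Of 137 list entries, 130 matched by name and 1 through a RefSeq synonym. Promoters came from RefSeq (GRCr8), matched by gene.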

Additional observations from a re-analysis of the deposited data

How the results depend on the processing

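The number of genes meeting the criteria was 604, and 414 to 776 under other scaling, tests and filters and 514 to 747 with a liver left out. Of the 10 genes, 0 met them, and 1 did with limma on log2(FPKM + 0.1) and 1 with limma on log2(FPKM + 1), Fabp2 in both (0.41 and 0.35), while leaving out a liver gave 0 to 1. The exceptions were Fabp4 at -1.30 without t-DHEA rat 1 and Acsl3 at -0.41 without t-DHEA rat 2. Of 160 refitted log2 fold changes, 142 kept direction and side of the criteria, 14 changed sign and 4 came to meet the criteria. Slc27a2 turned to -0.0117 with total counts, -0.0164 with limma on log2(FPKM + 0.1) and -0.0163 on log2(FPKM + 1). With a liver left out, log2 fold changes ran from -0.0087 to 0.789 for Cd36, -0.064 to 0.0742 for Slc27a2, 0.0875 to 0.226 for Fabp1, 0.358 to 0.546 for Fabp2, -1.3 to -0.371 for Fabp4, -0.893 to 0.227 for Fabp5, -0.0637 to 0.0351 for Acsl1, -0.414 to -0.119 for Acsl3, -0.0255 to 0.128 for Acsl4 and -0.214 to 0.0893 for Acsl5. The difference in the Acsl1 share ran from -2.41 to 2.27 percentage points with a liver left out and was -0.0852 from counts. That in the Fabp1 share ran from -0.0145 to 0.636 and was 0.456 from counts. Fabp4 could not be fitted under 10 counts in every liver. The cause of these shifts was not tested. Fabp2, at 25 to 41 counts per liver, is limited by depth.

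Rat number as a replicate block gave 539 genes meeting the criteria and 0 of the 10. Same-numbered livers did not deviate together (correlations -0.0571, -0.0592 and -0.0551), so the numbers were not taken to pair livers. Between livers of other numbers the correlations ran from -0.0683 to 0.116. The positive ones joined t-PBS rats 1, 2 and 3 with t-DHEA rats 2, 3 and 1 (0.114, 0.116 and 0.106). A model with that crossed pairing was not fitted. Deviations were taken from the mean of each group, so the correlations of any liver with the other group nearly cancel by construction. The signs alone therefore cannot show which livers, if any, were paired. The block by rat number changed no call among the 10.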
